A study of Mus musculus with 8 samples.

Results

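The genes examined here carry out the absorption of dietary fat by enterocytes and its export in chylomicrons: the apolipoprotein genes Apoa1, Apoa4, Apoc3 and Apob, the transfer protein gene Mttp, the fatty acid binding protein genes Fabp1 and Fabp2, the acyltransferase genes Mogat2 and Dgat1, and the fatty acid receptor gene Cd36. Every H3K9ac region whose nearest gene in the deposited annotation was one of these 10 genes was taken, which gave 13 of the 11251 regions in the table. All 10 genes had a region; Apoc3, Mogat2 and Dgat1 had 2 each and the other 7 had 1. H3K9ac, acetylation of histone H3 at lysine 9, marks active promoters and enhancers, and it was measured by chromatin immunoprecipitation and sequencing. The cells were epithelial cells of the terminal ileum from wild-type C57Bl/6 mice that had received vehicle (3 libraries) or 150 mM butyrate for 7 days (3 libraries); the 2 input libraries were not used here. Butyrate, a fatty acid with a short chain, is produced by bacteria in the gut and inhibits histone deacetylases. How it was given, and how old the mice were, is not given in the sources used here.

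Long-chain fatty acids and monoacylglycerol enter the enterocyte at the brush border, where CD36 takes part in uptake, and FABP1 and FABP2 bind them in the cytosol. MOGAT2 joins an acyl group to monoacylglycerol and DGAT1 completes the triglyceride at the endoplasmic reticulum. MTTP loads this triglyceride onto APOB, the structural protein of the chylomicron, and APOA1, APOA4 and APOC3 join the particle at its surface.

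The regions of the whole table held 1255251 to 1828591 reads per library. No label ties a library to a mouse of its own, and p-values therefore rest on the spread among libraries, which may be technical. All libraries had nearly the same sum over regions, with a spread of 1.28%. Whether the scaling of the deposited values imposed this is not stated, so a shift of H3K9ac common to all regions could not be judged. In a bulk sample, fewer cells with acetylated chromatin at a gene and less acetylation per cell cannot be told apart. The tissue label was checked against marker genes: all 12 epithelial markers searched, among them Epcam, Cdx2 and Cldn3, had a region, with summed levels of 66.9 to 71.7 RPKM in vehicle and 63.2 to 70.0 RPKM in butyrate libraries. RPKM counts reads per kilobase of a region and corrects them for the size of the library. Of 13 enterocyte markers 12 had a region, the ileal transporter gene Slc10a2 being the exception, and their sums were 29.1 to 30.8 and 28.4 to 30.7 RPKM. All 12 epithelial and all 12 enterocyte markers with a region were also measured by the rule of the gene lists below. Of 17 leukocyte markers, 4 had a region (Ptprc, Cd3d, Ms4a1 and Laptm5), and Cd3e, Cd79a and Csf1r were among those without. Only Laptm5 was measured, with 0.987 to 1.37 RPKM in vehicle and 0.970 to 2.09 RPKM in butyrate libraries. Of 15 stromal, endothelial and muscle markers, 2 had a region (Vim and Cdh5), and Col1a1, Pecam1 and Acta2 were among those without. Only Vim was measured, with 0.593 to 1.98 and 0.656 to 1.03 RPKM. Of 15 goblet, Paneth, tuft and enteroendocrine markers, 2 had a region (Spink4 and Trpm5) and 0 were measured. Their part in the differences below was not tested.

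At most of these genes H3K9ac reached from before the start site far into the gene. The region of Apoa1, for the main protein of high-density lipoprotein and a chylomicron component, ran from 1079 bp before to 3069 bp after the start named in the deposited annotation and covered 100% of the gene (chromosome 9, 46227551 to 46231699, mm10). That of Apoa4 ran from 531 bp before to 3479 bp after the start and also covered 100% of its gene (chromosome 9, 46240313 to 46244323). Of the Apoa1 and Apoa4 regions, 54.5% and 31.1% lay outside the gene, on both sides of it. The regions of Fabp1 (chromosome 6, 71199571 to 71202809) and Fabp2 (chromosome 3, 122894861 to 122898299) covered 57.4% and 72.8% of their genes. Apob (chromosome 12, 7977408 to 7983132) and Mttp (chromosome 3, 138126465 to 138135183) are long genes. Their regions ran from 269 bp and 3530 bp before the start to 5455 bp and 5188 bp after it. Intron made up 85.0% and 96.9% of the whole regions. At Mttp the stretch before the start named lies inside the gene, which has another start further upstream. Of the 13 regions, 8 covered the start named. Of these 8, 7 ended further after the start than 90% of the 7405 regions of the table that cover their start. This distance was not cut at the end of the gene, which the Apoa1 and Apoa4 regions passed. The median reach was 3184 bp after the start for these 8 and 1225 bp over all 7405. The other of the 8 was the region at the Mogat2 start (chromosome 7, 99238122 to 99238748), which ended 489 bp after it.

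The remaining 5 regions lay beside a start or inside a gene. Apoc3 had a region over the gene body (chromosome 9, 46232938 to 46234633) and another in the promoter (chromosome 9, 46235939 to 46236695), from 1059 to 303 bp before the start nearest to it. Neither covered any of the 3 Apoc3 starts in the basic GENCODE set, which lay in the gap of 1306 bp between them. Mogat2 had a second region wholly in intron 1 (chromosome 7, 99234848 to 99237218). Dgat1 had one at its start (chromosome 15, 76508851 to 76512202) and another from 3805 to 6934 bp after it (chromosome 15, 76505059 to 76508188), 97.2% intron and annotated by its centre to exon 2. The region of Cd36 (chromosome 5, 17828527 to 17829071) was 544 bp long, lay 6825 to 7369 bp after the start named and was annotated to exon 3. That start, at 17835896, lies inside the gene, which is 107112 bp long and begins at 17888801 on the minus strand. None of the 5 GENCODE starts of Cd36 was inside a region.

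**Figure D1:**
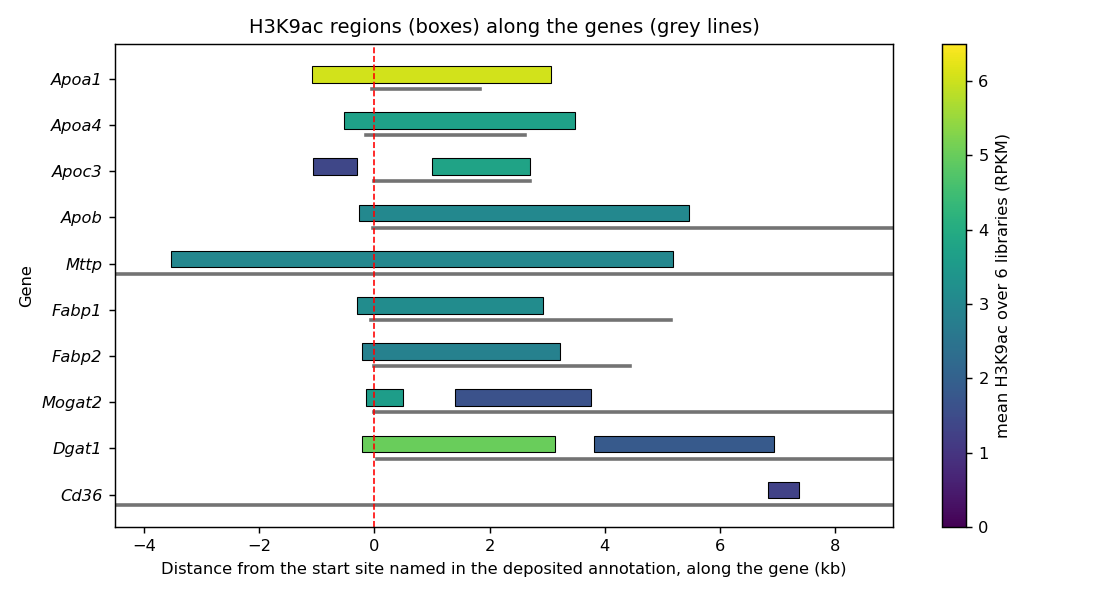
Boxes show the 13 H3K9ac regions by distance in kb from the start site named in the deposited annotation (for Apoc3, the farther upstream of its starts), along the direction of each of the 10 genes, coloured by mean RPKM over 6 libraries; grey lines are the genes, drawn within the plotted range. Boxes of 8 regions cross the start (dashed line), and those of Apoa1 and Apoa4 cover the whole gene. That of Cd36 lies over 6 kb after the start named, which is itself inside the gene.

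Apoa1 had the highest level, 6.06 ± 0.27 RPKM (SD, n = 6 libraries of both groups), above 95.7% of all regions. The start of Dgat1 followed with 5.02 ± 0.27 RPKM, above 88.8% of all regions, and its 6 values did not overlap those of Apoa1. From there down to Fabp2, at 2.83 ± 0.40 RPKM, came Apoc3 gene body, Apoa4, Mogat2 start, Fabp1, Apob and Mttp, and in this order each overlapped the next in range. The lowest 4 were the region downstream in Dgat1 (1.83 ± 0.37 RPKM), the Mogat2 intron (1.63 ± 0.30), Apoc3 upstream (1.37 ± 0.54) and Cd36 (1.29 ± 0.40), which overlapped one another in turn and lay below all values of Fabp2. The 13 regions had a median level close to that of the table, 3.03 against 3.09 RPKM, while their median length was 3238 bp against 1417 bp. Mttp, at 8718 bp, was longer than 99.7% of all regions. Of the 13 regions, 9 held at least 100 mean reads, with 553.8 at Mttp and 531.3 at Apoa1, whereas Cd36 held 14.8 and Apoc3 upstream 21.7.

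**Figure D2:**
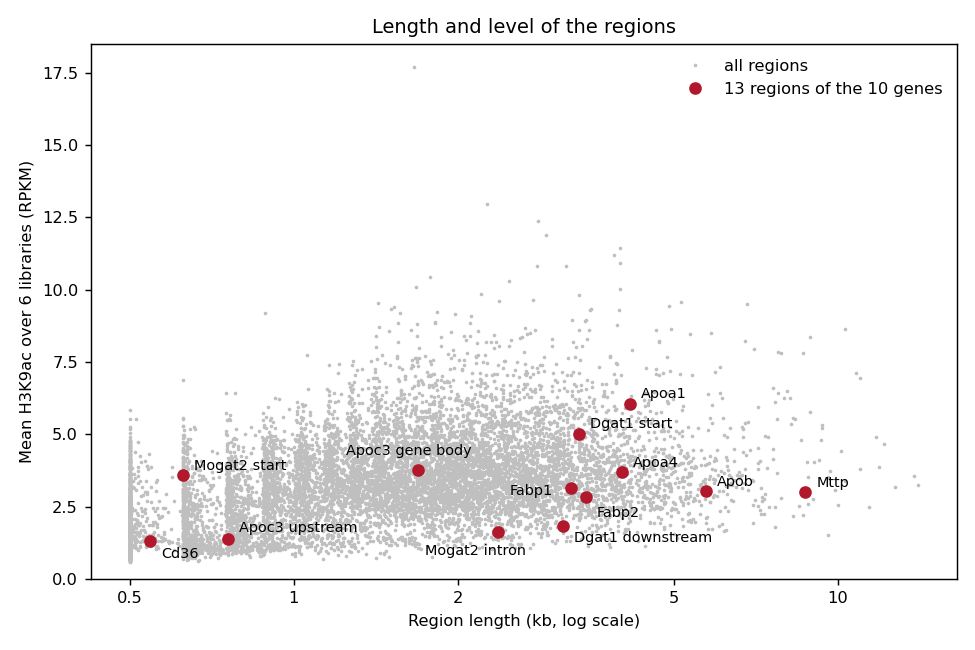
Mean H3K9ac over 6 libraries (RPKM) against region length (kb, log scale) for all 11251 regions (grey) and the 13 regions of the 10 genes (red, named). Mttp and Apob are among the longest regions at a level near the middle, Apoa1 is long and dense, and Cd36 and Apoc3 upstream are short and sparse.

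The sequence below the regions was poor in CpG dinucleotides. The ratio of observed to expected CpG, from the mm10 genome, was 0.079 to 0.508 in the 13 regions. All 13 were under the median of the table (0.588), and 11 were under its lower quartile (0.371). The 13 regions were longer than those of the table (median 3238 against 1417 bp) and often mostly intron. The ratio was not compared at like length or place. Promoters of tissue-specific genes often lack CpG islands, and housekeeping promoters usually have one. RefSeq promoter sequences (build GRCm38.p6) were matched for 7 of the 10 genes, and Apoc3, Dgat1 and Mogat2 were not matched. In the 250 bases before the start, the ratio was 0.134 at Fabp2, 0.175 at Fabp1, 0.196 at Apoa1, 0.0482 at Apoa4, 0.258 at Cd36 and 0.368 at Apob. The median was 0.374 over all 32841 promoters and 0.727 over the 9787 promoters of genes with a region. Among all promoters, Apob stood at percentile 49.5 and Cd36 at 37.7. Mttp was the exception, with 1.07, higher than 96.9% of all promoters. This promoter belongs to a far start of Mttp, 11765 bp upstream of the start inside the long Mttp region, and it lies in a region that the deposited annotation names after the neighbouring gene Trmt10a, for a tRNA methyltransferase (chromosome 3, 138143143 to 138145073).

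The promoters of Apoa1, Apoa4, Apob, Fabp1 and Fabp2 are shown because H3K9ac covered all or most of these bases, and the far Mttp promoter for its contrast in CpG. Each is the 250 bases before the RefSeq start, 5′ to 3′ on the strand of the gene, with matches to the motifs searched in capitals. Apoa1 is chr9:46228380-46228629 (+), Apoa4 chr9:46240594-46240843 (+), Apob chr12:7977427-7977676 (+), Fabp1 chr6:71199629-71199878 (+), Fabp2 chr3:122894822-122895071 (+) and Mttp chr3:138143419-138143668 (-).
Apoa1: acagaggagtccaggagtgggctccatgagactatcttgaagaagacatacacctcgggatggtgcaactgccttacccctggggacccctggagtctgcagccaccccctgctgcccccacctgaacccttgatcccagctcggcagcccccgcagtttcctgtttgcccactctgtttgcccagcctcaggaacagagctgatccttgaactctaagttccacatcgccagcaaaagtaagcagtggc
Apoa4: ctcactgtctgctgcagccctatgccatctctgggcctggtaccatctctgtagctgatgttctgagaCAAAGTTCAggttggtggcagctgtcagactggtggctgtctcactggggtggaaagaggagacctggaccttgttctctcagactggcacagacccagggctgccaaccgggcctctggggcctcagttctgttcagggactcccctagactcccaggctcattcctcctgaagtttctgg
Apob: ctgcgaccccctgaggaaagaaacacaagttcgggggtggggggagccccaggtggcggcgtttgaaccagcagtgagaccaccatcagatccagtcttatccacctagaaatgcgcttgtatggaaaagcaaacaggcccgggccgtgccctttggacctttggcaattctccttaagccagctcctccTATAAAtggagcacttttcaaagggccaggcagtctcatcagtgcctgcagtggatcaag
Fabp1: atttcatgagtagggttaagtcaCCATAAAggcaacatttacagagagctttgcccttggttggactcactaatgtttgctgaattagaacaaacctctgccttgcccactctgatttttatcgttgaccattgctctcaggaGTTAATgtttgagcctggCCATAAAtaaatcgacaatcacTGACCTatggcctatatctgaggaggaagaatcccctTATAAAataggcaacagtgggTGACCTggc
Fabp2: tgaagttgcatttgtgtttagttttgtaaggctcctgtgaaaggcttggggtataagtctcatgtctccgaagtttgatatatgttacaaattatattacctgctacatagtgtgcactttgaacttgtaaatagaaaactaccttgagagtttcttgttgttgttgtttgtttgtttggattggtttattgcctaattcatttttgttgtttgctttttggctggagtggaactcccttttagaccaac
Mttp: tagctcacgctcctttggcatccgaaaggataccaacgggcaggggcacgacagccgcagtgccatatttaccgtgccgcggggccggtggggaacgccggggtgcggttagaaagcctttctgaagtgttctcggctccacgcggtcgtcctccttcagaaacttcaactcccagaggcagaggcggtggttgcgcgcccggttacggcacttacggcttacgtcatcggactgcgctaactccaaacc

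A total of 7 motifs was searched on both strands of the 7 matched promoters. Fabp1 held the most matches. The sequence TTTATGG, recognised by the gut homeobox factors CDX1 and CDX2, matched on the opposite strand at 227 and 89 bp before the start, and 2.43% of all promoters held it. AGGTCA, bound by many nuclear receptors, matched on the opposite strand at 67 and 9 bp (14% of all promoters). GTTAAT, part of the HNF1 site, matched at 107 bp (6.43%), and the TATA box TATAAA at 30 bp (12.4%). Apoa4 held CAAAGTTCA, a site type of the enterocyte factor HNF4, at 182 bp before the start (0.335% of all promoters), and Apob held TATAAA at 60 bp. Cd36 held AGGTCA on the opposite strand at 228 bp. The other HNF4 sequence searched, CAAAGTCCA (0.384%), and the GATA factor sequence AGATAA (9.99%) were in none of the 7. No match of 1 motif overlapped a match of another in these promoters. A match describes the letters of this window and not a bound site.

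The study compared histone acetylation in epithelial cells of butyrate and vehicle mice. None of the 13 regions passed limma on log2(RPKM + 1), with Benjamini-Hochberg adjustment over all 10529 regions tested, where the share called was 0%. The smallest adjusted p among the 13 was 0.57, at Apoc3 upstream. An unadjusted limma p under 0.05 was found at 1 of 13, against 7.27% of all regions. Voom on reads recovered from the RPKM values, a second limma method, also called 0 of 13 (0.142% of all regions), with 4 of 13 at an unadjusted p under 0.05 against 9.49% of all regions. These 4 were both Apoc3 regions, Fabp2 and the downstream region of Dgat1. Restricted to regions with 25 or more reads on average, voom called 0 of 11 (0.0995%), with 3 of 11 at an unadjusted p under 0.05 against 8.3% of all such regions. At an FDR under 0.1 the authors' deposited table called 0 of the 13, against 0.249% of all regions. The point estimates were below 0 at 9 of 13 regions (50% of all regions), and their median log2 fold change was -0.06 against 0.00 over all regions. The library groups did not overlap at 5 of the 13, against 13% of all regions. These 5 were Fabp2, with the butyrate libraries higher (6.11% of all regions), and Apoa1, Apoc3 upstream, Mttp and Cd36, with the butyrate libraries lower (6.85% of all regions). Scaled to reads in regions or to the upper quartile, 4 of 13 did not overlap (12.9% of all regions), Apoa1 being the one lost.

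**Figure D3:**
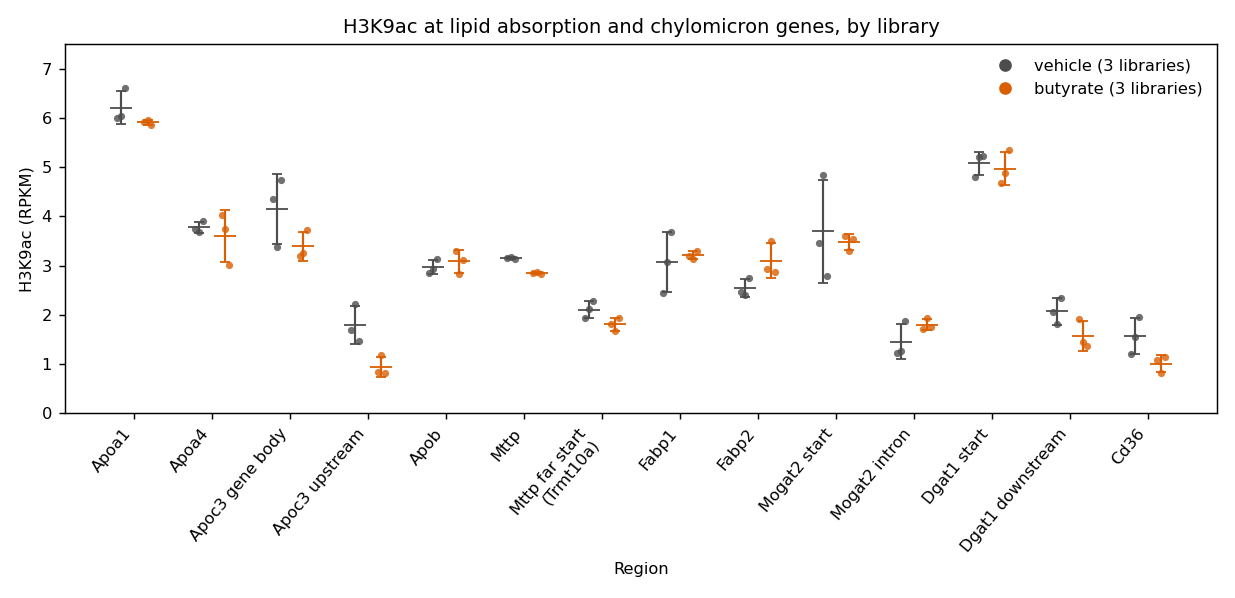
H3K9ac in RPKM at each region, with a point per library, a horizontal mark for the group mean and bars of 1 SD (3 vehicle libraries in grey, 3 butyrate libraries in orange); the far Mttp start is the region named Trmt10a. The groups lie apart at Apoa1 (not under 2 other scalings), Apoc3 upstream, Mttp, Fabp2 and Cd36, and no region passed the adjusted test.

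Apoa1, Apoc3 and Apoa4 lie side by side on chromosome 9, and their 4 regions fell within 16772 bp, with gaps of 1239, 1306 and 3618 bp. The stretch upstream of Apoc3 is known from other work as an enhancer that drives these neighbouring genes in the intestine. At Apoc3 upstream the vehicle libraries S1 to S3 had 1.69, 2.22 and 1.47 RPKM and the butyrate libraries S4 to S6 had 0.835, 1.18 and 0.823 RPKM. Every butyrate library lay below every vehicle library, and the lowest vehicle value was 1.47 against a highest butyrate value of 1.18. The means were 1.80 ± 0.39 and 0.946 ± 0.20 RPKM (SD, n = 3 each), a ratio of 0.527. This was the largest relative difference among the 13, and it rested on 33, 30 and 23 reads in vehicle and 14, 16 and 14 in butyrate, where counting error alone was 17.4% to 26.7% per library. Its log2 fold change was -0.52 ± 0.18 (SE, limma, 95% interval -0.90 to -0.14, unadjusted p 0.0114, adjusted p 0.57). On recovered reads, which do not damp weak regions, voom gave -0.90 ± 0.36 (adjusted p 0.35), and the authors' deposited table gave -0.92 (FDR 0.24).

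The gene body of Apoc3, which encodes an inhibitor of lipoprotein lipase and of remnant clearance, had 4.34, 3.37 and 4.74 RPKM in vehicle and 3.19, 3.26 and 3.72 RPKM in butyrate libraries. S2 of the vehicle group lay among the butyrate values, so the groups overlapped. The log2 fold change was -0.22 ± 0.12 (95% interval -0.47 to 0.03), and the authors' deposited table gave -0.30 (FDR 0.535). The limma value was -0.34 without S2 and -0.14 without S3. The ratio of the upstream to the body region was 0.389, 0.659 and 0.311 in vehicle and 0.262, 0.362 and 0.221 in butyrate. These overlapped, with a log2 difference of -0.64 and an exact 2-sided permutation p of 0.2 (adjusted p 0.4 over the 4 such ratios computed), where 0.1 is the smallest that 3 against 3 libraries allow.

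At Apoa1 the vehicle libraries had 5.99, 6.04 and 6.60 RPKM and the butyrate libraries 5.91, 5.96 and 5.86 RPKM. The groups were apart by a narrow margin, which was lost when libraries were scaled to their reads in regions or to the upper quartile. S3 stood above the other 5, and the mean was 4.81% lower in butyrate. The limma interval for the log2 fold change was -0.22 to 0.10 around -0.06 (adjusted p 0.87), on 443 to 641 reads per library, and leaving out 1 library gave -0.08 to -0.02. Apoa4, whose protein is secreted by enterocytes in response to fat, had 3.74, 3.69 and 3.91 RPKM in vehicle and 4.03, 3.75 and 3.01 RPKM in butyrate. S6 was the lowest and S4 the highest of all 6, and the log2 fold change of -0.06 (95% interval -0.29 to 0.17) became 0.03 without S6. Taken as 1 stretch, the 4 regions of the cluster had 4.57, 4.45 and 4.92 RPKM in vehicle and 4.41, 4.35 and 4.08 RPKM in butyrate. The highest butyrate value, 4.41, lay only just below the lowest vehicle value, 4.45. This narrow gap was not tested, not set against other stretches and not checked under the other scalings. The sum held 827 to 1251 reads per library and was mostly Apoa1 and Apoa4.

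Apob had 2.86, 2.94 and 3.14 RPKM in vehicle and 3.31, 2.84 and 3.12 RPKM in butyrate. The groups overlapped fully, and the log2 fold change was 0.04 ± 0.11 (95% interval -0.19 to 0.27) on a mean of 367.7 reads. It ranged from 0.00076 without S4 to 0.084 without S5.

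Mttp encodes the subunit without which APOB is not lipidated. Its region had 3.15, 3.18 and 3.13 RPKM in vehicle and 2.85, 2.87 and 2.83 RPKM in butyrate. The 2 groups were each tight and stood apart, and the mean was 9.65% lower with butyrate (3.15 ± 0.024 against 2.85 ± 0.021 RPKM, SD, n = 3 each). The spread within groups, 0.767% and 0.734%, was below the counting error of 3.76% to 4.73% that 448 to 708 reads per library allow, so these SDs understate the error of the values. Limma, which draws the spread of a region toward that of others, gave -0.11 ± 0.10 (95% interval -0.33 to 0.11, adjusted p 0.82), voom gave -0.15 ± 0.08 (adjusted p 0.57), and the authors' deposited table gave -0.15 (FDR 0.499). At the far start of Mttp, in the region named Trmt10a, the values were 1.93, 2.12 and 2.28 RPKM in vehicle and 1.82, 1.68 and 1.93 RPKM in butyrate (-0.15 ± 0.13, adjusted p 0.82). There the groups overlapped only in that S6 of the butyrate group reached S1 of the vehicle group. The acetylation of that region cannot be assigned to Mttp or Trmt10a alone. The Mttp region held 1.63, 1.5 and 1.37 times the density of the Trmt10a region in vehicle and 1.57, 1.71 and 1.46 times in butyrate (exact 2-sided permutation p 0.5, adjusted p 0.5).

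Fabp2, the intestinal fatty acid binding protein gene, had 2.47, 2.41 and 2.76 RPKM in vehicle and 2.94, 3.51 and 2.87 RPKM in butyrate. All butyrate libraries were above all vehicle libraries, S5 being furthest, and the mean was 21.9% higher (2.55 ± 0.19 against 3.10 ± 0.35 RPKM, SD, n = 3 each). The log2 fold change was 0.21 ± 0.11 (95% interval -0.03 to 0.45, limma adjusted p 0.71), and voom gave 0.27 ± 0.12 (adjusted p 0.44). In the authors' deposited table it was 0.28 (FDR 0.4). Fabp1, the liver-type paralogue that enterocytes also make in abundance, had 2.45, 3.08 and 3.69 RPKM in vehicle and 3.20, 3.14 and 3.31 RPKM in butyrate. The butyrate values all fell within the vehicle range, whose spread was 20.1%, and the log2 fold change was 0.06 (95% interval -0.20 to 0.32), or -0.05 without S1. The difference between Fabp2 and Fabp1 was not tested.

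Mogat2 makes diacylglycerol from absorbed monoacylglycerol. Its start had 3.47, 4.83 and 2.78 RPKM in vehicle and 3.60, 3.30 and 3.55 RPKM in butyrate, on 36 to 56 reads per library. The vehicle libraries S2 and S3 were the highest and the lowest, with all butyrate values between them, and the log2 fold change was -0.04 (95% interval -0.34 to 0.25), or 0.12 without S2. Its intron region had 1.23, 1.28 and 1.88 RPKM in vehicle and 1.71, 1.93 and 1.76 RPKM in butyrate. S3 of the vehicle group lay among the butyrate values (0.20 ± 0.16, 95% interval -0.14 to 0.54). The log2 fold change was 0.31 without S3 and 0.13 without S1.

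Dgat1, the final enzyme of triglyceride synthesis, had 4.80, 5.20 and 5.23 RPKM at its start in vehicle and 4.68, 4.88 and 5.34 RPKM in butyrate. These groups overlapped, and the interval of the log2 fold change was narrow, -0.21 to 0.16 around -0.03. The region further into Dgat1 had 2.07, 1.81 and 2.35 RPKM in vehicle and 1.92, 1.45 and 1.36 RPKM in butyrate. S4 overlapped the vehicle range and S5 and S6 lay below it, with a mean 24.1% lower in butyrate on a mean of 121.7 reads. The log2 fold change was -0.26 ± 0.15 (95% interval -0.58 to 0.06, limma adjusted p 0.72), voom gave -0.41 ± 0.16 (adjusted p 0.34), and the authors' deposited table gave -0.40 (FDR 0.397). Relative to the start, the downstream region had 0.431, 0.348 and 0.450 times the density in vehicle and 0.409, 0.296 and 0.255 times in butyrate. These ratios overlapped (exact 2-sided permutation p 0.2, adjusted p 0.4), as did those of the Mogat2 intron to its start (exact permutation p 0.5, adjusted p 0.5).

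Cd36, whose product binds long-chain fatty acids and is also known from macrophages, endothelium and fat cells, had the sparsest region. The vehicle libraries had 1.21, 1.55 and 1.96 RPKM and the butyrate libraries 1.08, 0.821 and 1.14 RPKM. The groups were apart, but only by 1.21 against 1.14 RPKM between S1 and S6, and the libraries held 8 to 22 reads, with a counting error of up to 35.4%. The means were 1.57 ± 0.37 and 1.01 ± 0.17 RPKM (SD, n = 3 each; log2 fold change -0.35 ± 0.18, 95% interval -0.73 to 0.04, limma adjusted p 0.70). The authors' deposited table gave -0.59 (FDR 0.648).

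**Figure D4:**
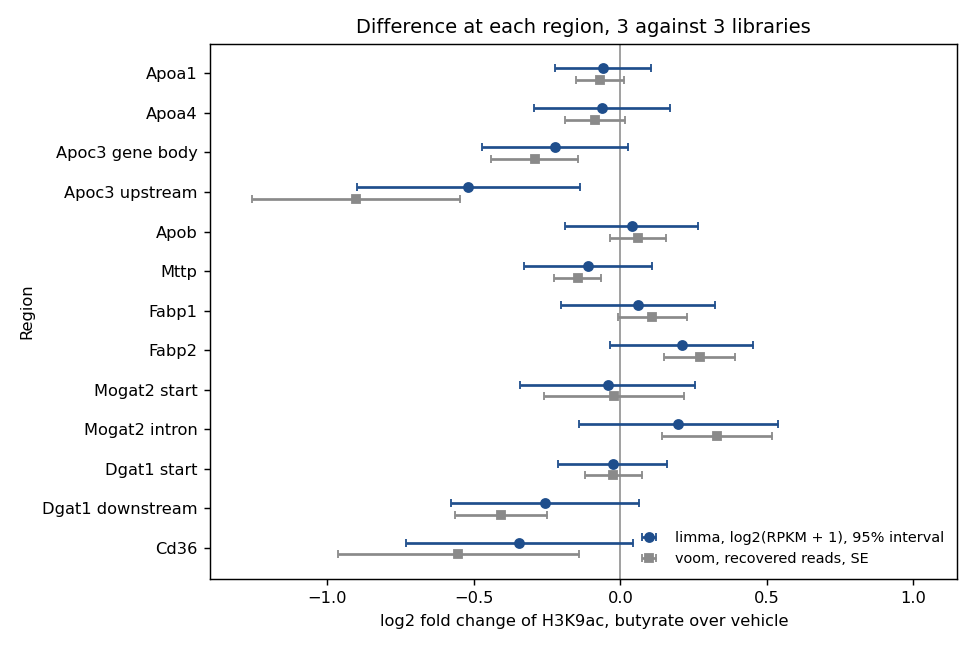
The log2 fold change of H3K9ac, butyrate over vehicle, at the 13 regions from limma on log2(RPKM + 1) with its 95% interval (blue circles) and from voom on recovered reads with its SE (grey squares). The limma interval excludes 0 only at Apoc3 upstream, which has an adjusted p of 0.57. The voom values lie further from 0 at most regions, and most of all at the sparse ones.

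Other genes of fat absorption were taken from 6 lists, each gene by 1 region within 5 kb of its start, the one with the most reads, and limma called 0 genes in each list (0% of all regions). Of 12 genes of fatty acid and sterol uptake, 8 were measured, 5 with a positive and 3 with a negative estimate (median log2 fold change 0.03). Of 12 genes of lipid binding in the cell it was 3 and 5 of 8 (median -0.07), and of 25 genes of acyl-CoA and glycerolipid synthesis 7 and 13 of 20 (median -0.05). Of 29 symbols for chylomicron assembly and export, 22 were measured, 8 positive and 14 negative (median -0.05). For lipid droplets and lipolysis the counts were 5 and 6 of 11 measured among 20 genes (median -0.00), and for transcription factors of these genes 11 and 21 of 32 measured among 39 symbols (median -0.06). The median over all regions was 0.00.

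In each list the gene with the smallest p in each direction was named, and none passed limma. Of the genes so named, Sec23a, Abhd5 and Aadac had overlapping groups (unadjusted limma p 0.357, 0.274 and 0.221). The groups lay apart at the others, which the choice by smallest p favours. For uptake, the sterol exporter gene Abcg5 had 3.60 ± 0.26 RPKM in vehicle and 3.14 ± 0.18 in butyrate, and Cav1, a caveolar coat gene, 1.03 ± 0.20 and 1.58 ± 0.19 RPKM on 13.7 mean reads. For lipid binding, Rbp2, the enterocyte retinol binding protein gene, had 2.42 ± 0.12 and 1.97 ± 0.12 RPKM, and Stard3, a sterol transfer protein gene of late endosomes, 2.76 ± 0.31 and 3.53 ± 0.097 RPKM.

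For lipid synthesis, Chpt1, a cholinephosphotransferase gene, had 2.45 ± 0.28 and 1.75 ± 0.18 RPKM, and the lysophospholipid acyltransferase gene Lpcat4 3.39 ± 0.16 and 4.61 ± 0.53 RPKM. For export, Mia3, whose product TANGO1 helps load large cargo into vesicles at the endoplasmic reticulum, had 5.33 ± 0.69 and 4.35 ± 0.094 RPKM. Sec23a, for a coat protein of these vesicles, had 2.79 ± 0.21 and 3.09 ± 0.38 RPKM. Among lipid droplet genes, Abhd5, the activator of adipose triglyceride lipase, had 3.63 ± 0.28 and 4.03 ± 0.42 RPKM, and Aadac, an esterase gene, 1.32 ± 0.13 and 0.965 ± 0.47 RPKM.

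Among the transcription factors, Mlxipl, which encodes the carbohydrate sensor ChREBP, had 1.95 ± 0.37 and 2.98 ± 0.39 RPKM (0.43 ± 0.14, limma adjusted p 0.57), on 32.7 mean reads. Nfil3, a clock-linked repressor known to affect lipid uptake in enterocytes, had 3.35 ± 0.45 and 2.37 ± 0.10 RPKM (-0.36 ± 0.12, limma adjusted p 0.57). It alone of these 12 named genes passed voom on all regions (adjusted p 0.0164). Leaving out S3 kept that call (0.00227), and it was lost without S1 (0.252), S2 (0.0789), S4 (0.0527), S5 (0.072) or S6 (0.135).

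**Figure D5:**
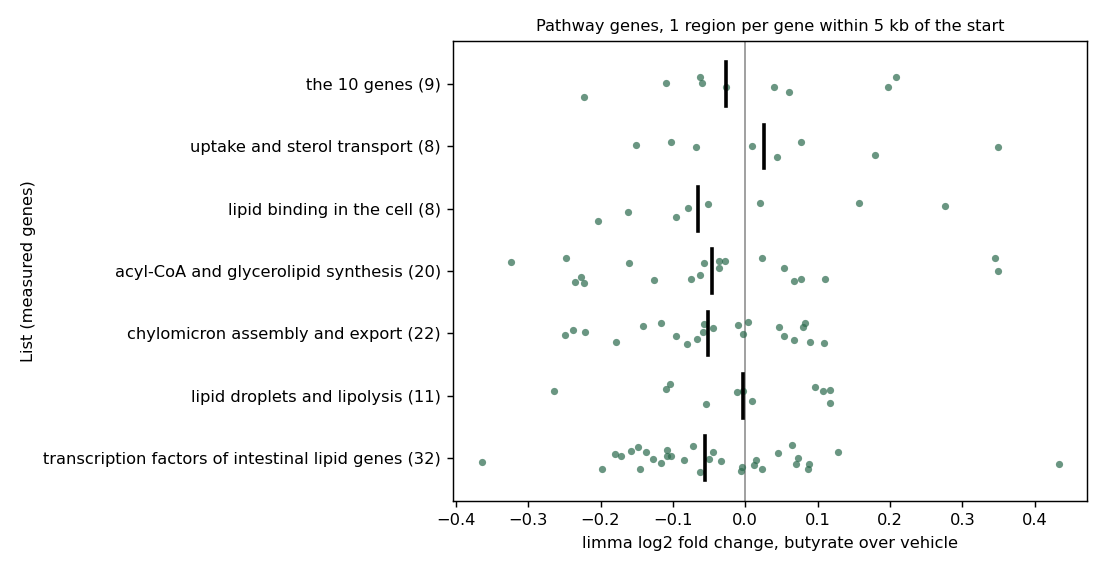
The limma log2 fold change of each measured gene (points) and the list median (black bar) for the 10 genes, by 1 region each within 5 kb of the start (9 measured, without Cd36), and the 6 lists of related genes. The medians lie between -0.07 and 0.03, and no gene passed the adjusted test.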

How the data were processed

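The 6 H3K9ac libraries of ileal epithelial cells were used from 1 deposited table. Per the submitters' processing notes the build was mm10 and the tools were STAR, Picard, HOMER and edgeR; their roles, region calling and counting are not stated there. Per the file headers, the authors deposited RPKM for each library, group means as RPKM and CPM, and for each region a log2 fold change, log2 CPM, p-value and FDR. Column names show only the group: S1, S2 and S3 are vehicle, and butyrate is S4, S5 and S6. RPKM times length gave whole reads for 100% of values (tolerance 0.01 reads), with effective library sizes of 17846924 to 25805595. Replicates differed by more than counting noise (chi-square per degree of freedom 1.93 to 2.09).

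Groups were compared by limma 3.58.1 under R 4.3.3, fitted to log2(RPKM + 1), with trend and robust empirical Bayes, on the 10529 regions with a mean RPKM of at least 1 (722 left out), adjusted by Benjamini-Hochberg at 0.05. All 13 regions passed the filter. The added 1 shrinks fold changes in general, and most those of sparse regions. At Mttp, with 553.8 mean reads, limma gave -0.11 with 1 added, -0.14 with 0.25 and -0.06 with 4. Voom on recovered reads, other scalings, filters and pseudocounts, and leaving out each library were alternatives, and the fits were tested on simulated data. Gene positions came from GENCODE M21 and promoters from RefSeq (GRCm38.p6), whose letters without N gave 32841 windows. Genes named are all members, and per list the smallest p in each direction. The members and lists were chosen with earlier results of these data known.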

Additional observations from a re-analysis of the deposited data

How the results depend on the processing

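No paired analysis was possible because the columns carry no replicate numbers shared by the groups. Limma called 0 regions of the table under every scaling, filter and pseudocount tried and without any 1 library. Voom called 16 of all regions, or 9 of those with at least 25 mean reads, and the authors' deposited table has 14 with an FDR under 0.05; none of these is among the 13 regions. Leaving out 1 library at a time, the 13 had 3 to 5 positive and 8 to 10 negative estimates and a median log2 fold change of -0.08 to -0.04. Regions without overlap between groups numbered 5 to 7 of 13 with 1 library left out, where 22.7% to 24.3% of all regions had none. The estimate changed sign at Fabp1 (-0.054 to 0.17), Mogat2 start (-0.19 to 0.12), Dgat1 start (-0.071 to 0.0085) and Apoa4 (-0.13 to 0.033), and at the other 9 regions it did not. With all libraries, the sign was the same at each of the 13 regions under each alternative that tested it. A minimum of 2 RPKM left out Apoc3 upstream, the Mogat2 intron, the downstream Dgat1 region and Cd36. Depth limits Apoc3 upstream and Cd36 most, which have under 25 mean reads. The voom fits without 1 library at Nfil3 were chosen after seeing the data. The cause of the differences between methods was not tested.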
